A study of Homo sapiens with 12 samples.

Results

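The actin cytoskeleton genes described here are 40 genes chosen by name: the actins, the proteins that bundle and crosslink filaments, the myosin and contractile genes, the factors of filament turnover and nucleation, the ezrin, radixin and moesin (ERM) genes with the spectrins of the membrane skeleton, and the links between filaments and adhesions. Each of the 40 had a row among the 34595 genes with a value, and 39 of them were among the 20147 genes bright enough to test. They were measured on Illumina expression BeadChips in CD133+ and CD133- cells sorted from 3 established gastric cancer cell lines, KATO-III, SNU-216 and SNU-601, with 2 arrays for each of the 6 populations. CD133 is a surface protein that is used to enrich cells with stem cell properties from gastric tumors. The labels give no treatment for any line: all cells grew in RPMI1640 medium with calf serum, were stained with an antibody against CD133, and were taken from the brightest and the dimmest ends of the staining. The deposited description of the design writes SNU201 where the array labels write SNU-216, and the array labels were followed. A line stands for 1 tumor, and nothing says that the 2 arrays of a population came from separate sorts. The p-values below within lines and between lines thus measure only the spread between these arrays. Those over the 3 lines together also take in how the change differs between the lines. In such pools of sorted cells, fewer cells that use a gene and less RNA of it per cell cannot be told apart.

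Actin monomers add to and leave filaments all the time, and the cell steers this with nucleators such as the Arp2/3 complex, with profilin, which feeds monomers to growing ends, and with cofilin and gelsolin, which sever old filaments. Bundlers and crosslinkers such as the plastins, fascin, alpha-actinin and filamin give filaments their shape as spikes, stress fibres or webs, and non-muscle myosin II pulls on them along tracks set by the tropomyosins. In epithelial cells such as those of the stomach, the ERM proteins and spectrin hold the filament network to the membrane and its microvilli, and vinculin, talin and zyxin carry its pull to adhesions.

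Many contractile actin genes are read by serum response factor (SRF), which binds a motif called the CArG box. Among the promoters that RefSeq gives for GRCh38.p14, 35 of the 40 genes had an entry, and ACTB, MYL9, TAGLN, PFN2 and FSCN1 were not matched. A CArG box lay within the 250 bases before the start of 4 of these 35 genes (11.4%), against 312 of 27305 promoters of the table (1.14%). The motif reads as the same pattern on both strands, so a single search covered both, and it was the only motif searched. Only exact matches, CC followed by A or T bases and then GG, were counted. Boxes with a mismatch were not looked for. The 4 windows are shown here because the level of SRF itself differed between the fractions of KATO-III, as given with the contractile genes below. Each is 50 bases of the gene's own strand, 5′ to 3′, with the box in capitals. The positions are chr17:81512864-81512913 on the minus strand for ACTG1, chr19:16067345-16067394 on the plus strand for TPM4, chr19:1026499-1026548 on the plus strand for CNN2 and chrX:154374699-154374748 on the minus strand for FLNA.
ACTG1: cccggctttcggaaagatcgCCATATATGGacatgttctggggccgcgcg
TPM4: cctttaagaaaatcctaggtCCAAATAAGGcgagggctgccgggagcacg
CNN2: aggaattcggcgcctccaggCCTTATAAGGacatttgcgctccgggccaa
FLNA: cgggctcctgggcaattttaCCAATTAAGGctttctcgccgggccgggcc
These matches describe the letters of the windows, and binding was not measured here.

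Between 16320 and 16474 genes lay above the floor of 32.7 that marks the scatter of the background. The deposited intensities were quantile-normalized, which brings such counts close together, so these counts do not show the quality of the arrays. The 2 arrays of a population correlated at 0.993 to 0.995 across genes. PROM1, the gene of CD133, was higher in the CD133+ cells of each line, with log2 changes of 1.10 in KATO-III, 2.02 in SNU-216 and 1.86 in SNU-601. All 8 epithelial marker rows were above the floor in every population, where EPCAM and TACSTD1 are the newer and older symbols of the same gene. Of the 7 leukocyte markers, CD68, HLA-DRA and ITGB2 were above it in every population, as was CD14 in KATO-III, and PTPRC and CD3E were under it on all 12 arrays. Of the 6 smooth muscle markers, SMTN was above it in every population and ACTA2 in each but the CD133- cells of SNU-216, and DES, MYH11, SYNPO2 and CNN1 were under it on all 12 arrays. Of the 7 fibroblast markers, 0 to 2 were above it on both arrays of a population. The 2 arrays of a population differed by a median SD of 0.0710 on the log2 scale, and with 2 arrays per population this spread is itself known only roughly.

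The set did not move as a block between the CD133 fractions, and its members changed in different directions in different lines. Changes here and below are on the log2 scale, CD133+ minus CD133- cells. At an adjusted p of at most 0.05, 10 of the 39 genes tested were higher in the CD133+ cells of KATO-III (25.6%, against 18.7% of all genes tested) and 11 were lower (28.2%, against 20.6%). In SNU-216, 11 were higher (28.2%, against 14.6%) and 7 were lower (17.9%, against 14%). In SNU-601, 8 were higher (20.5%, against 8.59%) and 6 were lower (15.4%, against 7.78%). The median change of the 39 genes was 0.0074 on the log2 scale in KATO-III, 0.064 in SNU-216 and 0 in SNU-601, beside a median over all genes of 0 in each line. Of the 40 genes, 33 were above the floor on all 12 arrays, as were 11674 genes of the table. Among these, 33.3% of the actin genes were higher and 36.4% were lower in KATO-III, against 25.4% and 28.5% of all such genes. In SNU-216 these shares were 21.2% and 24.2%, against 22.2% and 22.1%, and in SNU-601 they were 21.2% and 18.2%, against 13.8% and 12.5%. Without replicate 1 of the KATO-III CD133- arrays, the genes called higher in KATO-III fell from 10 to 5, which is 12.8% against 14.6% of all genes, so that the share of actin genes was no longer the larger. Without replicate 1 of the SNU-601 CD133+ arrays, or replicate 2 of the CD133- arrays, those called lower in SNU-601 fell from 6 to 3, or 7.69%, against 4.69% and 5.17% of all genes.

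**Figure D1:**
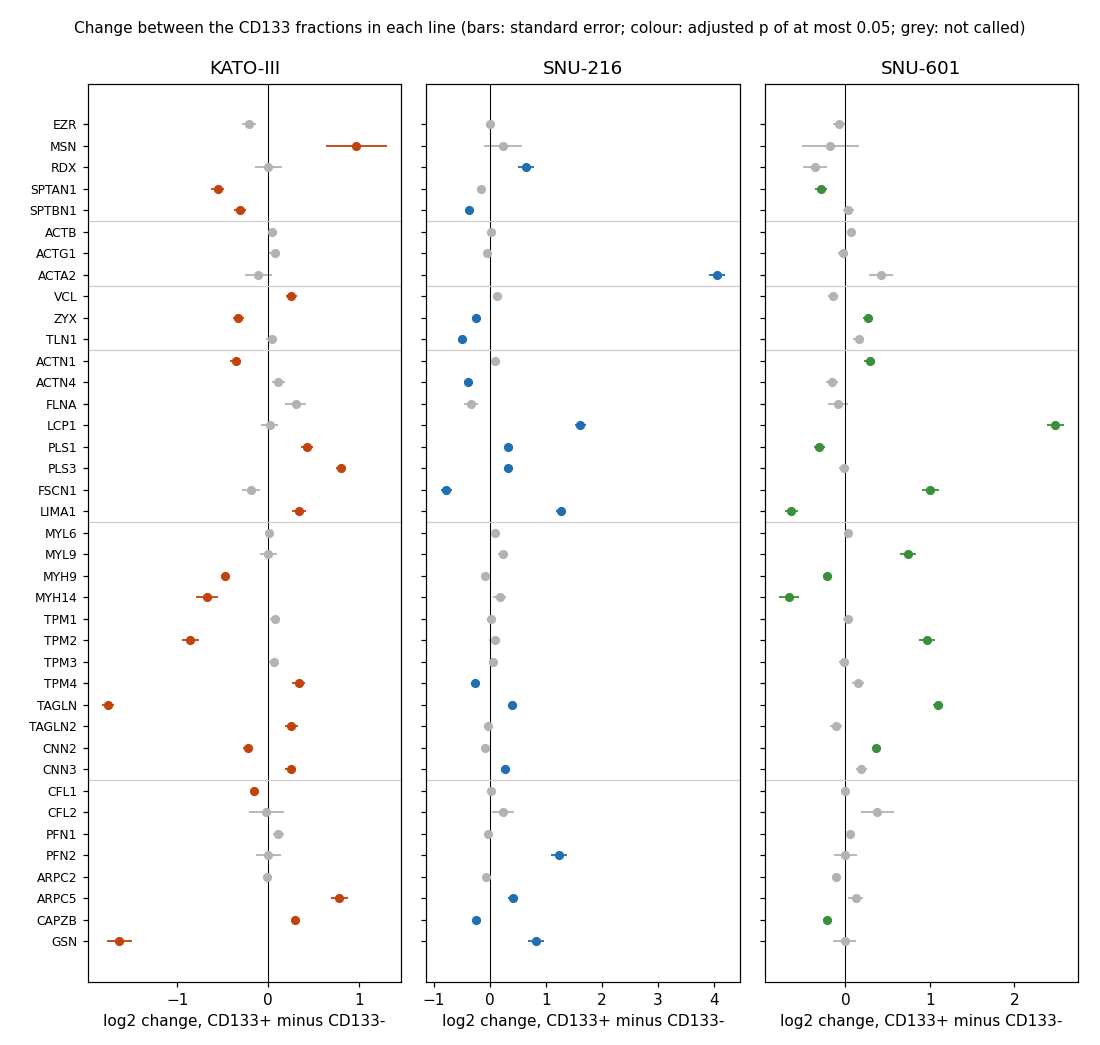
Log2 change of each of the 39 genes tested, CD133+ minus CD133- cells, in 3 panels for KATO-III, SNU-216 and SNU-601, whose horizontal scales differ. Points are the estimates with bars of 1 standard error, in colour where the adjusted p was at most 0.05 and grey elsewhere, in groups by role. TAGLN lies at -1.76 in KATO-III and at 1.10 in SNU-601, and ACTA2 lies at 4.06 in SNU-216.

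**Figure D2:**
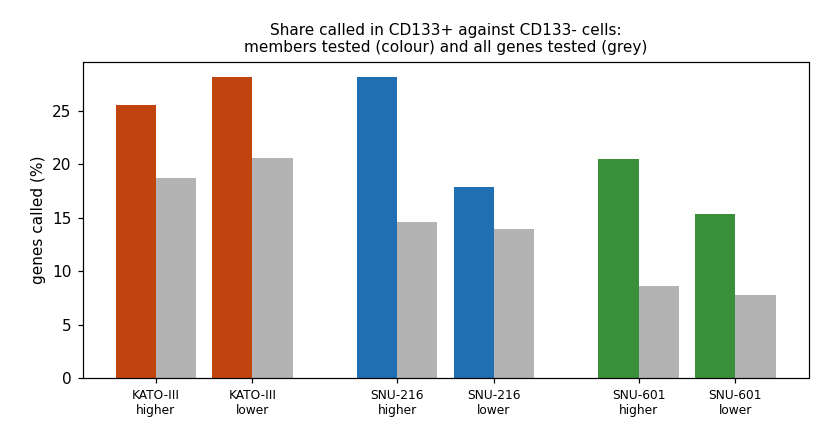
Percent of genes called higher or lower in CD133+ than in CD133- cells in each line, as coloured bars for the 39 actin cytoskeleton genes tested and grey bars for all 20147 genes tested. The coloured bar is the taller in each of the 6 pairs, at 15.4% to 28.2% against 7.78% to 20.6%, which is not so for genes higher in SNU-216 once only genes above the floor on all 12 arrays are kept (21.2% against 22.2%).

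Of the 39 genes, 29 were called in at least 1 line, and 10 of them in 1 line, 14 in 2 lines and 5 in all 3 lines. No gene was called in the same direction in all 3 lines by limma. At an unadjusted p under 0.05, 1 gene was higher in all 3 lines (CNN3) and 2 were lower (MYH9 and SPTAN1). By contrast, 11 genes were called higher in one line and lower in another: ACTN1, TPM2, TPM4, TAGLN, CNN2, ZYX, PLS1, FSCN1, CAPZB, GSN and LIMA1. The counts by number of lines and by direction were not made for all genes tested, so no background share stands beside them. Some calls were lost when an array of their own line was left out: those of TAGLN2, CNN2, CNN3, CFL1, VCL, MSN and LIMA1 in KATO-III, of TPM4, CNN3, ZYX, RDX and ARPC5 in SNU-216 and of ACTN1, ZYX, PLS1, SPTAN1 and CAPZB in SNU-601. The opposite directions of ACTN1, TPM4, CNN2, ZYX and PLS1 each rest on one of these calls. With no filter on dim genes, the calls of TAGLN2 and MSN in KATO-III, of TPM4 and ZYX in SNU-216 and of ZYX and SPTAN1 in SNU-601 were also lost. The interaction of line and fraction, which asks whether the change differs between the lines, passed for 28 of the 39 genes (71.8%), against 44.4% of all genes tested. Among genes above the floor on all arrays it passed for 66.7% of the actin genes and 62.3% of all genes. By role it passed for 8 of 8 bundling and crosslinking genes, 3 of 3 adhesion links, 8 of 12 contractile genes, 5 of 8 turnover and nucleation genes, 3 of 5 ERM and membrane skeleton genes and 1 of 3 actins.

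Levels also differed between the lines, taken over both fractions. With an adjusted p of at most 0.05 and a log2 difference of at least 1 between line means, 14 of the 39 genes were higher in SNU-216 than in KATO-III (35.9%, against 10.9% of all genes) and 5 were lower (12.8%, against 12%). SNU-601 exceeded KATO-III by this measure in 8 genes (20.5%, against 8.75%). No gene was lower in SNU-601 than in KATO-III by that much, where 9.33% of all genes were, and 3 passed limma's test at a smaller size, ACTA2, LIMA1 and TLN1, as they did at an unadjusted p under 0.05. SNU-216 exceeded SNU-601 in 8 genes (20.5%, against 10.9%) and lay under it in 5 (12.8%, against 11.8%). By role, the 14 genes higher in SNU-216 than in KATO-III were 7 of 12 contractile genes tested (MYL9, TPM1, TPM2, TPM4, TAGLN, CNN2 and CNN3) and 3 of 8 bundling and crosslinking genes. They further held 2 of 8 turnover and nucleation genes, 1 of 3 adhesion links, 1 of 5 ERM and membrane skeleton genes and 0 of 3 actins. Of the 39 genes tested, 6 were at the floor on some arrays (ACTA2, MYL9, CFL2, PFN2, LCP1 and RDX), and without such genes the counts higher in SNU-216 than in KATO-III and than in SNU-601 were 9 (27.3%, against 10.1% of all genes) and 3 (9.09%, against 10.7%), and that higher in SNU-601 than in KATO-III was 5 (15.2%, against 8.09%). The share higher in SNU-216 than in SNU-601 was thus near that of all genes once dim genes were left out.

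**Figure D3:**
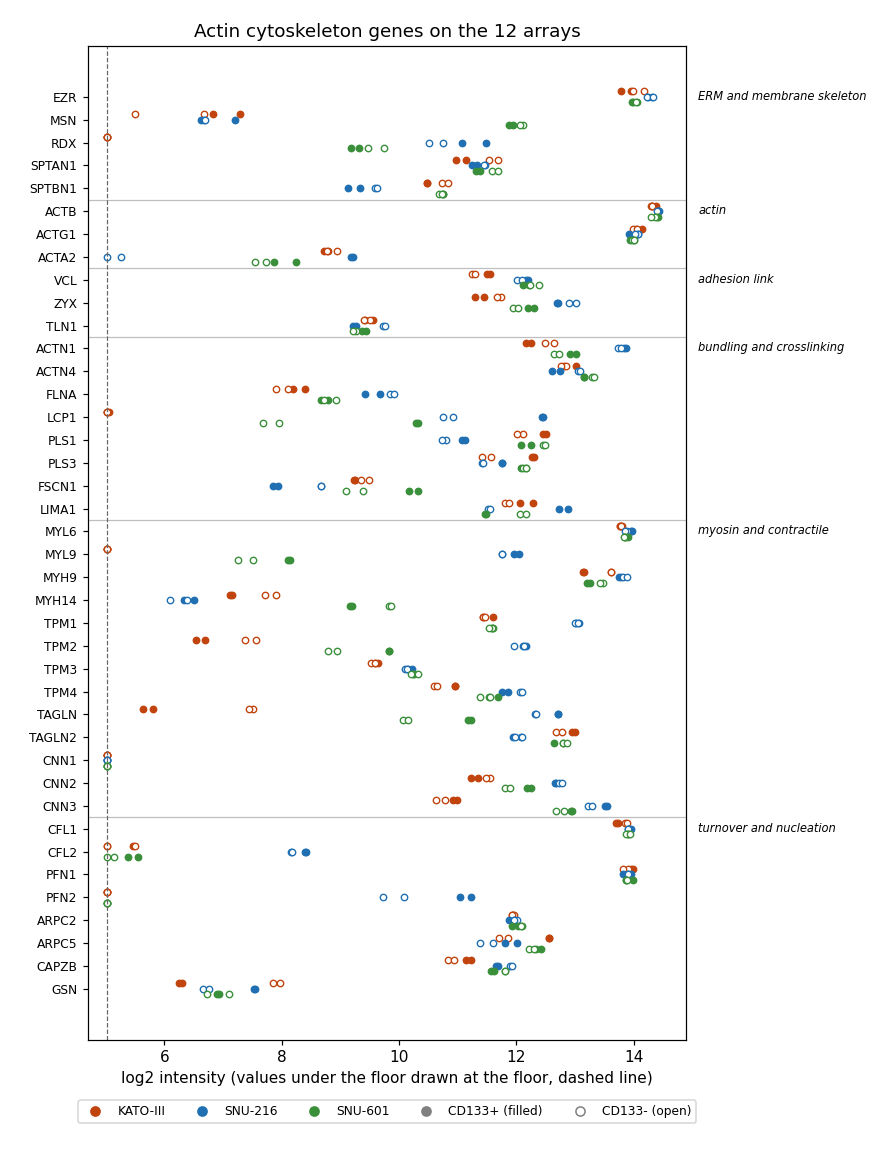
Log2 intensity of the 40 genes on the 12 arrays, grouped by role, with a filled circle for a CD133+ array and an open circle for a CD133- array, and red for KATO-III, blue for SNU-216 and green for SNU-601. Values under the floor of 32.7 are drawn at the floor, shown as a dashed line, and levels are to be compared along a row and not between genes. ACTB and ACTG1 lie in narrow ranges over all arrays, while MYL9, TAGLN, TPM2, LCP1, PFN2, RDX and MSN split by line.

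The cytoplasmic actins, which build the filaments of all non-muscle cells, hardly varied. ACTB read 20085 to 22031 over the 12 arrays and ACTG1 read 15549.6 to 18013. Neither passed the test in any line, and their log2 changes lay between -0.053 and 0.07. Both lie near the highest intensity of the table, 23394. ACTA2, the smooth muscle alpha-actin that is also made by myofibroblasts, behaved differently in SNU-216. There it read 598 and 580.0 on the CD133+ arrays and 38.3 and 25.2 on the CD133- arrays, of which 1 lay under the floor. The CD133+ arrays of SNU-216 were the highest of all 12 and the CD133- arrays of the same line were the lowest. The change was 4.06 (SE 0.144, adjusted p = 6.91e-07), and its size rests on the floor, since it was 2.56 with a floor of 100 and 2.39 with an offset of 100 in place of a floor. In KATO-III, ACTA2 read 442 and 422 on the CD133+ arrays and 495 and 439 on the CD133- arrays, with overlapping fractions. In SNU-601, ACTA2 read 304 and 234 on the CD133+ arrays and 213 and 186 on the CD133- arrays, and the change of 0.43 (adjusted p = 0.0811) did not pass. Of the 6 smooth muscle markers, ACTA2 among them, 4 were under the floor on all 12 arrays. SMTN, a further one, read 51.7 and 73.9 on the CD133+ arrays and 103 and 103 on the CD133- arrays of SNU-216, the opposite order. The summed level of the 6 markers in SNU-216 was 650.5 to 654 in CD133+ cells and 131 to 141 in CD133- cells, and most of the former is ACTA2 itself. The summed level of the 7 fibroblast markers there was 97.7 to 99.7 in CD133+ cells and 24.2 to 44.4 in CD133- cells, the order of ACTA2. LUM was the one of them above the floor on both CD133+ arrays, at 60.8 and 61.3, and it was under the floor on both CD133- arrays. The part of such cells in the change of ACTA2 was not tested.

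The contractile genes showed the largest reversal between lines. TAGLN, which codes for transgelin (SM22), a filament binding protein of contractile cells, read 55.9 and 49.7 on the CD133+ arrays and 182 and 175 on the CD133- arrays in KATO-III. In SNU-216, TAGLN read 6699.9 and 6746 on the CD133+ arrays and 5098 and 5164 on the CD133- arrays. In SNU-601, TAGLN read 2313 and 2410.3 on the CD133+ arrays and 1069 and 1140.1 on the CD133- arrays. The fractions did not overlap in any line, but CD133+ cells held the lower level in KATO-III and the higher level in the other two. The log2 changes were -1.76 (SE 0.0644, adjusted p = 4.45e-07) in KATO-III, 0.39 (SE 0.0644, adjusted p = 0.00202) in SNU-216 and 1.10 (SE 0.0644, adjusted p = 6.47e-05) in SNU-601, and the interaction had an adjusted p of 1.29e-06. In KATO-III the gene is dim, and the fall was -0.84 with a floor of 100 and -0.87 with an offset of 100. Between lines, TAGLN was 60.5-fold higher in SNU-216 and 16.6-fold higher in SNU-601 than in KATO-III. Over the alternative settings, these log2 differences of TAGLN, 5.92 and 4.06, came to as little as 4.86 and 3.06.

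TPM2, a tropomyosin that stabilizes filaments of the contractile apparatus, took the same course as TAGLN in KATO-III and in SNU-601. It read 103 and 92.7 on the CD133+ arrays and 190.1 and 166 on the CD133- arrays in KATO-III. In SNU-601, TPM2 read 911 and 908 on the CD133+ arrays and 492 and 441 on the CD133- arrays. The change was -0.86 (SE 0.0933, adjusted p = 0.000118) in KATO-III, or -0.49 with an offset of 100, and 0.96 (SE 0.0933, adjusted p = 0.000441) in SNU-601. In SNU-216 the fractions overlapped, at 4429 and 4582 on the CD133+ arrays and 4010.5 and 4503 on the CD133- arrays, and the change of 0.084 (adjusted p = 0.609) did not pass. The level of TPM2 in SNU-216 was 33.2-fold that in KATO-III. Over the alternative settings, this log2 difference of 5.054 came to as little as 4.255. MYL9, the regulatory light chain through which myosin II is switched on, was under the floor on all 4 KATO-III arrays. It read 3967 and 4211 on the CD133+ arrays and 3481 and 3470.2 on the CD133- arrays of SNU-216. In SNU-601, MYL9 read 275 and 282 on the CD133+ arrays and 182 and 152 on the CD133- arrays. The fractions were apart in both of these lines, and the change passed in SNU-601 at 0.74 (SE 0.0927, adjusted p = 0.00129) but not in SNU-216 at 0.23 (adjusted p = 0.0971). MYL9 was at least 115-fold higher in SNU-216 and at least 6.58-fold higher in SNU-601 than in KATO-III, taking KATO-III at the floor. With a floor of 100, the log2 difference of MYL9 from KATO-III fell from 6.85 to 5.24 for SNU-216 and from 2.72 to 1.11 for SNU-601. The other tropomyosins moved less. TPM4 was higher in CD133+ cells of KATO-III, at 0.33 (adjusted p = 0.00495), and lower in SNU-216, at -0.27 (adjusted p = 0.0183). TPM1 and TPM3 were not called in any line, with log2 changes between -0.016 and 0.073, although TPM1 was 2.92-fold higher in SNU-216 than in KATO-III.

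**Figure D4:**
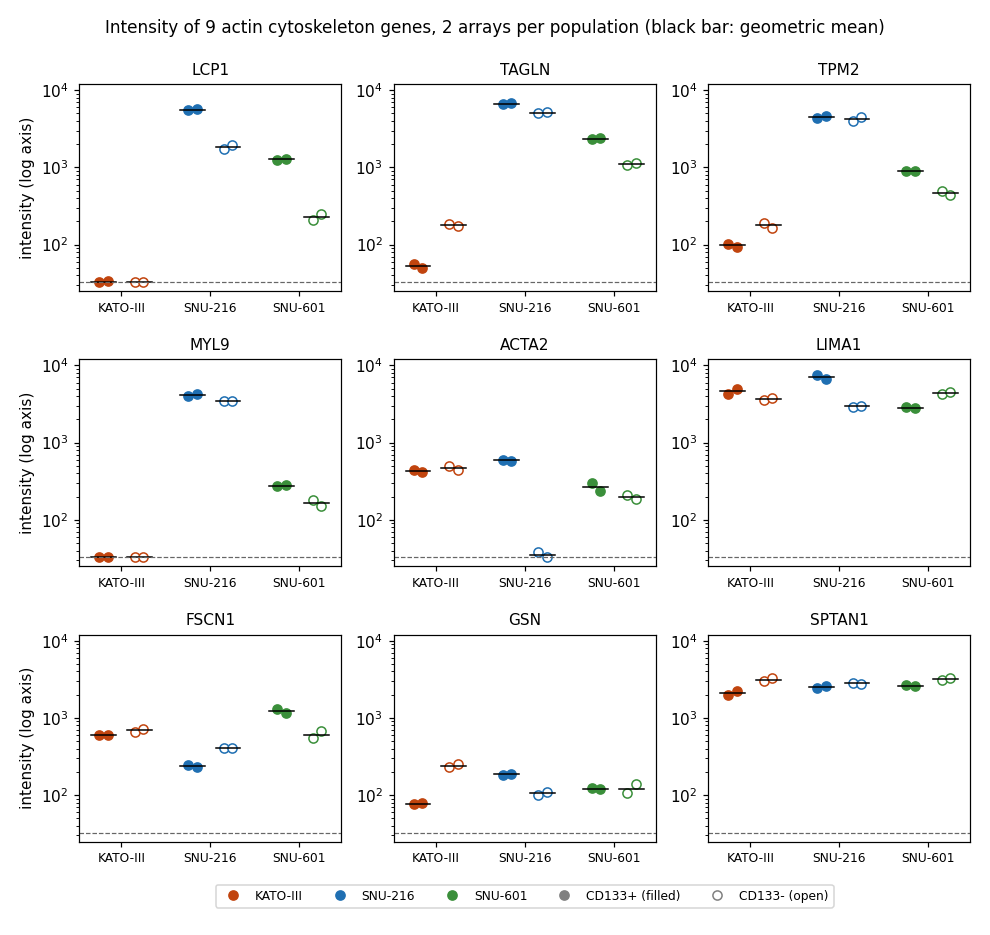
Intensity on a log axis of LCP1, TAGLN, TPM2, MYL9, ACTA2, LIMA1, FSCN1, GSN and SPTAN1 in the 6 populations, 2 arrays each, filled for CD133+ and open for CD133-, with a black bar at the geometric mean and the floor of 32.7 as a dashed line. TAGLN and TPM2 are lower in CD133+ cells of KATO-III and higher in those of SNU-601, LCP1 is higher in the CD133+ cells of SNU-216 and SNU-601, and SPTAN1 is lower in the CD133+ cells of each line.

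The myosin heavy chains were lower in CD133+ cells where they changed. MYH9, the most widely used heavy chain of non-muscle myosin II, read 9000.1 and 9076 on the CD133+ arrays and 12568 and 12593 on the CD133- arrays in KATO-III. In SNU-216, MYH9 read 14045 and 13737 on the CD133+ arrays and 14521 and 15086 on the CD133- arrays. In SNU-601, MYH9 read 9807 and 9457 on the CD133+ arrays and 11449 and 11038 on the CD133- arrays. Every CD133+ array lay below both CD133- arrays of its line. The change passed in KATO-III at -0.48 (SE 0.04, adjusted p = 2.8e-05) and in SNU-601 at -0.22 (SE 0.04, adjusted p = 0.00638), and did not pass in SNU-216 at -0.092 (adjusted p = 0.131). MYH14, a second heavy chain found in epithelia, read 143 and 138 on the CD133+ arrays and 211 and 239 on the CD133- arrays in KATO-III. In SNU-601, MYH14 read 589 and 573 on the CD133+ arrays and 909 and 936 on the CD133- arrays. In SNU-216, MYH14 read 91 and 81.3 on the CD133+ arrays and 68.9 and 84.1 on the CD133- arrays, with fractions that overlapped. Its change was -0.67 (SE 0.121, adjusted p = 0.00207) in KATO-III, or -0.43 with an offset of 100, -0.67 (SE 0.121, adjusted p = 0.00666) in SNU-601 and 0.18 (adjusted p = 0.351) in SNU-216. MYH14 was 4.12-fold higher in SNU-601 than in KATO-III and 9.05-fold lower in SNU-216 than in SNU-601. Over the alternative settings, these log2 differences of MYH14, 2.04 and -3.18, came to as little as 1.58 and -2.20. MYL6, the essential light chain, read 13986 to 16108 over the 12 arrays, near the top of the range, and was not called in any line.

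Among the calponins, which bind filaments and restrain myosin, CNN1 was under the floor on all 12 arrays and was not tested. CNN3 read 1941 and 2024 on the CD133+ arrays and 1593 and 1755 on the CD133- arrays in KATO-III. In SNU-216, CNN3 read 11671 and 11956 on the CD133+ arrays and 9565 and 10079.7 on the CD133- arrays. In SNU-601, CNN3 read 7818 and 7892 on the CD133+ arrays and 6586 and 7209.6 on the CD133- arrays. Each CD133+ array lay above both CD133- arrays of its line, with changes of 0.25 (SE 0.061, adjusted p = 0.0115) in KATO-III, 0.27 (SE 0.061, adjusted p = 0.0104) in SNU-216 and 0.19 (SE 0.061, adjusted p = 0.0696) in SNU-601, the last of which did not pass. CNN3 was 5.92-fold higher in SNU-216 and 4.04-fold higher in SNU-601 than in KATO-III. CNN2 moved as TAGLN did in KATO-III and SNU-601, with changes of -0.22 (adjusted p = 0.00957) and 0.36 (adjusted p = 0.00257). TAGLN2, a relative of transgelin that is used beyond contractile cells, was higher in CD133+ cells of KATO-III at 0.25 (adjusted p = 0.0225) and was not called in the other two lines.

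SRF read 2418 and 2716 on the CD133+ arrays and 4899.7 and 4949 on the CD133- arrays in KATO-III, a log2 change of -0.94 (SE 0.0813, adjusted p = 3.28e-05). In SNU-216, SRF read 9027 and 10549.8 against 8353 and 9111, and in SNU-601 3934 and 4078 against 4014 and 4079.7, and neither change passed. Of the 4 genes with a CArG box in the window before their start, CNN2 was lower in the CD133+ cells of KATO-III, TPM4 was higher there, and ACTG1 and FLNA did not pass. In KATO-III, LUM, a fibroblast marker, read 64.4 and 91.6 on the CD133+ arrays and 743 and 783 on the CD133- arrays. This is the order of the 11 genes of the set that were lower there. COL1A1, the other fibroblast marker tested, was called higher in those CD133+ cells, the opposite order. Of the 7 fibroblast markers, LUM alone was above the floor on both CD133- arrays and LUM and COL1A1 on both CD133+ arrays, with summed levels of 777 to 832 and 117 to 172. The other 5 were at the floor on all 4 KATO-III arrays, and the part of such cells in these results was not tested.

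The bundlers and crosslinkers held the largest rise after ACTA2. LCP1 codes for L-plastin, the plastin of leukocytes, which many carcinoma lines also make. In SNU-216, LCP1 read 5555 and 5641 on the CD133+ arrays and 1720.4 and 1950.3 on the CD133- arrays. In SNU-601, LCP1 read 1259 and 1286 on the CD133+ arrays and 207 and 249.5 on the CD133- arrays. The fractions were far apart in both lines, with changes of 1.61 (SE 0.0981, adjusted p = 1.09e-05) and 2.49 (SE 0.0981, adjusted p = 1.43e-05). In KATO-III, LCP1 was under the floor on 3 of 4 arrays, and the remaining one read 33.3. It was at least 97.5-fold higher in SNU-216 and at least 16.4-fold higher in SNU-601 than in KATO-III, where the mean rests on the floor. With a floor of 100, these log2 differences of LCP1, 6.61 and 4.03, became 5.00 and 2.43. The summed level of the 7 leukocyte markers was 2739 to 3006 in CD133+ and 2561 to 2626 in CD133- cells of SNU-601, and 694 to 731 and 985 to 1064 in SNU-216. It was highest in KATO-III, where LCP1 lay at the floor, at 15380 to 16380 in CD133+ and 12950 to 13700 in CD133- cells. The sum does not follow each marker: in KATO-III, HLA-DRA was called higher in CD133+ cells, and CD14, CD68 and ITGB2 were called lower. ITGB2 read 1209.7 and 1155 on the CD133+ arrays and 700.4 and 599.7 on the CD133- arrays of SNU-601, the order of LCP1, and 242 and 261 on the CD133+ arrays and 272 and 279 on the CD133- arrays of SNU-216, the opposite order. Their part in the change of LCP1 was not tested.

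The other plastins followed other courses. PLS1, the plastin of intestinal microvilli, was higher in CD133+ cells of KATO-III at 0.42 (adjusted p = 0.000746) and of SNU-216 at 0.33 (adjusted p = 0.00419), and lower in SNU-601 at -0.31 (adjusted p = 0.0118). PLS3, the plastin of most solid tissues, read 4934 and 5078 on the CD133+ arrays and 3041 and 2724 on the CD133- arrays in KATO-III, a change of 0.80 (SE 0.0573, adjusted p = 1.22e-05). It was higher in SNU-216 too, at 0.33 (adjusted p = 0.00263), and did not pass in SNU-601, at -0.016 (adjusted p = 0.98). LIMA1 codes for EPLIN, which crosslinks filaments and ties them to cell junctions. It read 7545 and 6761 on the CD133+ arrays and 2928 and 3003 on the CD133- arrays of SNU-216. In KATO-III, LIMA1 read 4288 and 5012 on the CD133+ arrays and 3567 and 3765 on the CD133- arrays. In SNU-601 the order was reversed, with 2866 and 2829 on the CD133+ arrays and 4291 and 4595 on the CD133- arrays. The fractions of LIMA1 did not overlap in any line, and the changes were 1.27 (SE 0.0798, adjusted p = 1.27e-05) in SNU-216, 0.34 (SE 0.0798, adjusted p = 0.00868) in KATO-III and -0.64 (SE 0.0798, adjusted p = 0.00127) in SNU-601.

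FSCN1 codes for fascin, the bundler of filopodia and invasive protrusions. It read 1289 and 1148 on the CD133+ arrays and 549 and 669.7 on the CD133- arrays of SNU-601. In SNU-216, FSCN1 read 244 and 232 on the CD133+ arrays and 406 and 409.6 on the CD133- arrays. CD133+ cells thus held more in SNU-601, a change of 1.01 (SE 0.0999, adjusted p = 0.000499), and less in SNU-216, a change of -0.78 (SE 0.0999, adjusted p = 0.000534). In KATO-III, FSCN1 read 606 and 599 on the CD133+ arrays and 657 and 718 on the CD133- arrays, and the change of -0.19 (adjusted p = 0.181) did not pass. The alpha-actinins, which crosslink stress fibres, also changed in different lines. ACTN1 was lower in CD133+ cells of KATO-III at -0.36 (adjusted p = 0.00182) and higher in SNU-601 at 0.29 (adjusted p = 0.0157), and ACTN4 was lower in SNU-216 at -0.39 (adjusted p = 0.00314). FLNA, the filamin that links filaments into webs, was not called in any line, at 0.30 (adjusted p = 0.079) in KATO-III, -0.34 (adjusted p = 0.0662) in SNU-216 and -0.092 (adjusted p = 0.721) in SNU-601. When only genes above the floor on all arrays were tested, FLNA was called higher in KATO-III and lower in SNU-216.

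Among the factors of turnover and nucleation, gelsolin and profilin 2 changed most. GSN, which severs and caps filaments, read 76 and 79 on the CD133+ arrays and 232 and 251 on the CD133- arrays in KATO-III. In SNU-216, GSN read 184 and 187 on the CD133+ arrays and 101 and 109 on the CD133- arrays. In SNU-601, GSN read 122 and 119 on the CD133+ arrays and 106 and 138 on the CD133- arrays, and these overlapped. The change was -1.64 (SE 0.137, adjusted p = 2.8e-05) in KATO-III and 0.83 (SE 0.137, adjusted p = 0.00209) in SNU-216, of opposite sign, and -0.01 (adjusted p = 1) in SNU-601. With an offset of 100 the first became -0.94 and the second 0.48. PFN2, a profilin best known from neurons, was above the floor in SNU-216 alone, where it read 2401 and 2104 on the CD133+ arrays and 1082 and 845 on the CD133- arrays. The change there was 1.23 (SE 0.139, adjusted p = 0.000273), and its level was at least 44.8-fold that in KATO-III and in SNU-601. Over the alternative settings, this log2 difference of PFN2, 5.49 from either line, ran from 3.87 to 6.52. PFN1, the widespread profilin, read 14411 to 16239.5 and was not called in any line. CFL1, the main cofilin, was lower in CD133+ cells of KATO-III by a small step, at -0.16 (adjusted p = 0.0119), and this call was lost when arrays were centred on their medians or the mean-variance trend was left out.

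CFL2, a cofilin of muscle, read 341 and 336 on the CD133+ arrays and 286 and 289 on the CD133- arrays of SNU-216, and its changes were not called in any line. In the other two lines it read 22.4 to 46.7, at or close to the floor, and the level in SNU-216 was at least 8.16-fold that in KATO-III, with 2 of the 4 KATO-III arrays at the floor. With a floor of 100, that log2 difference of 3.03 became 1.64. ARPC5, a subunit of the Arp2/3 complex that starts branched filaments, read 6031 and 6050.0 on the CD133+ arrays and 3697 and 3348 on the CD133- arrays in KATO-III. In SNU-216, ARPC5 read 4125 and 3567 on the CD133+ arrays and 3102 and 2655 on the CD133- arrays. In SNU-601, ARPC5 read 5462 and 5175 on the CD133+ arrays and 4759 and 5023 on the CD133- arrays. CD133+ arrays lay above CD133- arrays in each line, by 0.78 (SE 0.0911, adjusted p = 0.000177), 0.42 (SE 0.0911, adjusted p = 0.00816) and 0.12 (SE 0.0911, adjusted p = 0.459), and the change in SNU-601 did not pass. ARPC2, another subunit of the same complex, read 3763 to 4358 over the 12 arrays and was not called in any line. CAPZB, the beta subunit of capping protein, was higher in CD133+ cells of KATO-III at 0.30 (adjusted p = 0.00118) and lower in SNU-216 at -0.25 (adjusted p = 0.00469) and in SNU-601 at -0.22 (adjusted p = 0.0162).

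Moesin and radixin split by line. EZR, which codes for ezrin of the microvillus, read 14192 to 20533 over the 12 arrays, and its change in KATO-III was -0.21 (adjusted p = 0.051). Over the alternative settings, the adjusted p of EZR in KATO-III ran from 0.0201 to 0.317. A separate row under its older symbol VIL2 read 13202 and 13318 on the CD133+ arrays and 15902 and 15643 on the CD133- arrays in KATO-III and passed there at -0.25 (adjusted p = 0.00109). MSN, for moesin, read 3948 and 3777 on the CD133+ arrays and 4441 and 4295 on the CD133- arrays of SNU-601. In KATO-III, MSN read 156 and 114 on the CD133+ arrays and 45.5 and 102 on the CD133- arrays. In SNU-216, MSN read 98.8 and 148 on the CD133+ arrays and 102 and 103 on the CD133- arrays. All 4 SNU-601 arrays were thus far above the other 8, by 43.1-fold over KATO-III and 36.9-fold over SNU-216. The log2 difference of SNU-601 minus KATO-III, 5.43, came to as little as 4.39 over the alternative settings. That of SNU-216 minus SNU-601, -5.20, came to as little as -4.31. The change of 0.97 (SE 0.337, adjusted p = 0.0491) in KATO-III was called, but only in 1 of the 12 fits that left out an array, and it was 0.40 with a floor of 100 and 0.45 with an offset of 100. RDX, for radixin, was under the floor on all 4 KATO-III arrays. It read 2849.8 and 2166 on the CD133+ arrays and 1469 and 1723 on the CD133- arrays of SNU-216, a change of 0.64 (SE 0.145, adjusted p = 0.00959). In SNU-601, RDX read 583 and 638 on the CD133+ arrays and 711 and 858 on the CD133- arrays, and the change of -0.36 (adjusted p = 0.139) did not pass. RDX was at least 60.8-fold higher in SNU-216 and at least 21.1-fold higher in SNU-601 than in KATO-III. With a floor of 100, these log2 differences of RDX, 5.93 and 4.40, became 4.31 and 2.79.

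SPTAN1, the alpha spectrin of the membrane skeleton outside red cells, kept the same order in all lines. In KATO-III, SPTAN1 read 2001 and 2256 on the CD133+ arrays and 2982 and 3283 on the CD133- arrays. In SNU-216, SPTAN1 read 2431 and 2574 on the CD133+ arrays and 2830.2 and 2782 on the CD133- arrays. In SNU-601, SPTAN1 read 2668 and 2559 on the CD133+ arrays and 3093 and 3310.2 on the CD133- arrays. Each of the 6 CD133+ arrays lay below each of the 6 CD133- arrays. The change was -0.56 (SE 0.0713, adjusted p = 0.000296) in KATO-III and -0.29 (SE 0.0713, adjusted p = 0.0241) in SNU-601, and -0.17 (adjusted p = 0.125) in SNU-216, which did not pass. The call in SNU-601 held in 8 of the 12 fits on 11 arrays, was lost without any one of the 4 SNU-601 arrays, and was also lost with no filter on dim genes and with no mean-variance trend. Its partner SPTBN1, a beta spectrin, was lower in CD133+ cells of KATO-III at -0.31 (adjusted p = 0.00636) and of SNU-216 at -0.37 (adjusted p = 0.00361), and was 0.036 in SNU-601.

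The 3 adhesion links each differed in their change between the lines. ZYX, for zyxin, which gathers at adhesions under tension, was lower in CD133+ cells of KATO-III at -0.33 (adjusted p = 0.00352) and of SNU-216 at -0.25 (adjusted p = 0.0182), and higher in SNU-601 at 0.27 (adjusted p = 0.0238). The calls of ZYX in SNU-216 and SNU-601 each held in 9 of the 12 fits on 11 arrays and were lost with no filter on dim genes, that in SNU-601 also with no mean-variance trend. VCL, for vinculin, was higher in KATO-III at 0.25 (adjusted p = 0.00937) and did not pass in the other two lines, at 0.13 and -0.15. TLN1, for talin, which couples integrins to actin, was lower in SNU-216, where it read 615 and 595 on the CD133+ arrays and 849 and 868 on the CD133- arrays, a change of -0.50 (SE 0.0636, adjusted p = 0.000482). In KATO-III and SNU-601, TLN1 changed by 0.036 and 0.16 and did not pass.

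Over the 3 lines together, with line as a block, 3 genes were called higher in CD133+ cells (7.69% of the 39, against 2.62% of all genes) and 2 were called lower (5.13%, against 2.11%). The higher ones were CNN3 at 0.23 (SE 0.0457, adjusted p = 0.0232), LCP1 at 1.37 (SE 0.314, adjusted p = 0.035) and ARPC5 at 0.44 (SE 0.0983, adjusted p = 0.0334). The lower ones were MYH9 at -0.26 (SE 0.0579, adjusted p = 0.0318) and SPTAN1 at -0.34 (SE 0.0713, adjusted p = 0.0288). This comparison counts the 2 arrays of a population as separate. With the 2 arrays averaged first, limma called none of the 39 genes (lowest adjusted p 0.796). At an unadjusted p under 0.05, 2 were higher (ARPC5 and LCP1) and 1 lower (MYH9), against 470 and 522 of all 20147 genes tested. Treating the population as a random block, limma also called none (lowest adjusted p 0.191). There 5 were higher and 2 lower at an unadjusted p under 0.05, against 1109 and 1188 of all 20147 genes tested. The counts of lower genes are near the share of all genes under both settings. None of the 5 calls survived each of the 12 fits on 11 arrays: CNN3 held in 10, SPTAN1 in 7, ARPC5 and MYH9 in 6 each and LCP1 in 3.

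The study's methods take genes by a signal-to-noise ratio (SNR) with thresholds of 1 and -1, and state no formula. Here the SNR was the difference of the means of the 6 CD133+ and 6 CD133- arrays over the sum of their SDs. By this measure SPTAN1 alone passed, with an SNR of -1.34 from means of 2415 and 3047, where 0.402% of all 34595 genes lay below -1. No member lay above 1, where 0.558% of all genes did, and the highest value was that of ARPC5, at 0.666. These ratios carry the spread between lines in their SDs and no test. With the SD held to at least 0.2 times the mean, SPTAN1 no longer passed. With a separate SNR for each line and the mean of the 3 taken, 15 of the 40 genes lay above 1 (37.5%, against 15.8% of all genes) and 10 below -1 (25%, against 17.6%), from 2 arrays per SD.

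Beyond the 40 genes, 99 other genes of the actin pathway were tested, from lists that include Arp2/3 activators, formins and cappers, monomer binding factors, regulators of myosin, adhesion proteins, the membrane skeleton and the SRF cofactors. The CD133+ cells held more of 26 (26.3%, against 18.7% of all genes tested) and less of 22 (22.2%, against 20.6%) in KATO-III. They held more of 27 (27.3%, against 14.6%) and less of 13 (13.1%, against 14%) in SNU-216, and more of 9 (9.09%, against 8.59%) and less of 13 (13.1%, against 7.78%) in SNU-601. The shares lower in KATO-III and SNU-216 and higher in SNU-601 are near those of all genes. The largest changes in KATO-III were those of ACTR3, a core subunit of Arp2/3, at 1.76 (SE 0.182, adjusted p = 8.95e-05), and of EPS8, which caps and bundles filaments, at 1.72 (SE 0.355, adjusted p = 0.00451). ACTR3 read 545 and 529 on the CD133+ arrays and 181 and 139 on the CD133- arrays there. In SNU-216 they were those of PPP1R12A, the targeting subunit of myosin phosphatase, at 1.28 (SE 0.256, adjusted p = 0.00536), and of FLNC, the filamin of muscle, at -1.27 (SE 0.282, adjusted p = 0.00898). In SNU-601 they were those of LIMK2, a kinase that switches off cofilin, at 1.05 (SE 0.188, adjusted p = 0.00637), and of WASF2, an activator of Arp2/3, at -0.95 (SE 0.102, adjusted p = 0.000696). WASF2 read 921 and 821 on the CD133+ arrays and 1559 and 1818 on the CD133- arrays there, while PPP1R12A, EPS8 and LIMK2 read at most 208 on every array. On the CD133- arrays, PPP1R12A read 33.6 and 24.7 in SNU-216, and LIMK2 read 37.5 and 26.9 in SNU-601. The lower value of each pair lay under the floor, so the sizes of both changes rest in part on the floor. Of the 99 genes, 1 was called in the same direction in all 3 lines, and it is named after its values were seen. The share of all genes that did so was not counted. The gene was CALD1, for caldesmon, which binds filaments and inhibits myosin. It read 1342 and 1257 on the CD133+ arrays and 559 and 577 on the CD133- arrays in KATO-III, 6274 and 6399.5 against 3948 and 3924 in SNU-216 and 1239 and 1278 against 1093 and 1054 in SNU-601, with changes of 1.19 (adjusted p = 5.95e-07), 0.69 (adjusted p = 1.81e-05) and 0.23 (adjusted p = 0.0109).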

How the data were processed

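Total RNA of cells sorted by flow cytometry was amplified, labelled with biotin and hybridized to Illumina BeadChips, 12 arrays in all. The submitters' processing notes name BeadStudio, with its version not given in the sources used here. The deposited intensities were quantile-normalized by the authors and are linear, with 1 value per gene symbol, and the rule that merged several probes of 1 gene is not given in the sources used here. A background was subtracted, since 32.1% of the deposited intensities are at or below 0. Of 34688 gene rows, 93 are empty on every array.

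Intensities under 32.7 were set to this floor, equal in size to the 1st percentile of the table (-32.7), and log2 was taken. The plan had assumed log2 values. Genes over the floor on 2 or more arrays were tested. Tests used limma 3.58.1 in R 4.3.3 with a mean-variance trend: a mean for each of the 6 populations (6 residual degrees of freedom) within lines, between lines and for the interaction, and line as a block over the lines (8 degrees of freedom). P-values were adjusted by Benjamini and Hochberg over all 20147 genes tested. Folds with one side wholly or in part under the floor are lower bounds taken at the floor, and are written "at least". Tables and plots were made in Python 3.11.15 with numpy 2.4.6, pandas 2.3.3 and matplotlib 3.10.9, and the tests were tried on simulated data with known changes. Promoters came from RefSeq tables for GRCh38.p14. Levels of different genes were not compared, since each has its own probe.

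The 40 genes, the other lists and the tests were chosen with earlier results of these data known. A gene was given on every array if it was called with a log2 change of at least 1 in any line, or over the lines, or passed an SNR of 1 or -1, or differed by at least 2 on the log2 scale between any pair of lines. PROM1 was named as the check of the sort, and from the other lists the 2 called genes with the largest change in each line. Alternatives were floors of 16 and 100, an offset of 100, other filters, normalizations and variance models, and leaving out each array.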

Additional observations from a re-analysis of the deposited data

Results flagged for a closer look

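For 28 of the 39 genes tested, the change between CD133+ and CD133- cells differed between the 3 lines by limma's test of the interaction (71.8%, against 44.4% of all genes tested). Among genes above the floor on all 12 arrays, the shares were 66.7% and 62.3%, which lie near each other. The adjusted p was smallest for contractile TAGLN (1.29e-06) and TPM2 (4.31e-05), the actin ACTA2 (5.13e-06), the bundlers LCP1 (1.3e-05), LIMA1 (1.69e-05) and FSCN1 (6.08e-05), and gelsolin, GSN (5.96e-05). Of the other bundlers and crosslinkers, it was 0.000214 for PLS3, 0.000417 for PLS1, 0.0011 for ACTN1, 0.00891 for ACTN4 and 0.0341 for FLNA. Of the other contractile genes, it was 0.00068 for CNN2, 0.00162 for MYH9, 0.00281 for TPM4, 0.00431 for MYL9, 0.00456 for MYH14 and 0.0368 for TAGLN2. Of the turnover factors, it was 0.000397 for CAPZB, 0.00126 for PFN2, 0.00811 for ARPC5 and 0.0455 for CFL1. Of the adhesion links and the membrane skeleton, it was 0.000828 for TLN1, 0.00144 for ZYX, 0.0108 for VCL, 0.00961 for RDX, 0.015 for SPTBN1 and 0.0282 for SPTAN1. With 2 arrays per fraction of each line, a difference between lines cannot be told apart from a difference between the sorts of those lines.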

How the results depend on the processing

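Calls within lines were steadier than calls over the lines. Of the genes called in KATO-III, SNU-216 and SNU-601, 14 of 21, 13 of 18 and 9 of 14 kept their call in each of the 12 fits on 11 arrays. In these fits the lone array left in a population is assumed to vary like the others. They gave 5 to 10 higher and 10 to 12 lower genes in KATO-III, 9 to 12 and 5 to 7 in SNU-216, 6 to 8 and 3 to 6 in SNU-601, and 0 to 2 in each direction over the lines. They further gave 24 to 27 interactions, 14 to 14 genes higher and 5 to 5 lower in SNU-216 than in KATO-III, 8 to 8 higher and 0 to 1 lower in SNU-601 than in KATO-III, 8 to 9 higher and 5 to 5 lower in SNU-216 than in SNU-601, and SNR counts of 0 to 0 above 1 and 1 to 1 below -1.

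Over the lines, the 3 higher and 2 lower genes became 1 higher with a floor of 100, 1 and 0 with no filter on dim genes, 1 and 1 with no mean-variance trend, 0 and 0 with the arrays of a population averaged, and 0 and 0 when the population was a random block. The replicate numbers do not pair the populations: the 15 correlations of replicate 1 minus replicate 2 between populations lay from -0.012 to 0.028, and 0 were above 0.1. With the replicate number as a replicate block, 1 gene was higher (CNN3) and 1 lower (SPTAN1) over the lines, and within KATO-III the call of MSN was lost. Genes lower in SNU-216 than in KATO-III, 5 in all, became 3 with a floor of 100 and 2 with an offset of 100. With genes above the floor on all 12 arrays only, the count higher was 7 in CD133+ cells of SNU-216, 9 and 5 for SNU-216 and SNU-601 over KATO-III, and 3 for SNU-216 over SNU-601, since fewer genes were tested. With the SD held to at least 0.2 times the mean, 0 genes had an SNR below -1, and with SNRs taken within each line and averaged, 15 lay above 1 and 10 below -1. The difference of ACTA2 between SNU-216 and SNU-601, -0.67, became 0.075 with a floor of 100, which lifts its dim CD133- arrays in SNU-216. No other called value of a single gene changed sign. Where no construction is named, the cause was not tested. For genes near the floor, the signal over background limits how well the size of a change is known. These are ACTA2, MYL9, CFL2, PFN2, LCP1, RDX, and TAGLN, TPM2, GSN, MSN and MYH14 in KATO-III, and MSN and MYH14 in SNU-216.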

Other observations

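Of 17 formins and cappers tested, the CD133+ cells held more of 8 (47.1%) and less of 3 (17.6%) in KATO-III, where 18.7% and 20.6% of all genes were called. The counts were 5 (29.4%) and 1 (5.88%) in SNU-216, against 14.6% and 14% of all genes, and 1 (5.88%) and 4 (23.5%) in SNU-601, against 8.59% and 7.78%. DIAPH1, a formin that extends unbranched filaments, changed by -0.28 (adjusted p = 0.000268) in KATO-III, 0.12 (adjusted p = 0.0384) in SNU-216 and -0.33 (adjusted p = 0.000698) in SNU-601. DIAPH3, a related formin, was higher in KATO-III at 0.88 (adjusted p = 0.00018) and in SNU-601 at 0.51 (adjusted p = 0.0104). VIL1, for villin of the microvillus, was under the floor on all 4 SNU-216 arrays, and changed by 0.23 (adjusted p = 0.0431) in KATO-III and -0.59 (adjusted p = 0.00165) in SNU-601. SSH2 and SSH3, phosphatases that switch cofilin on, were both lower in KATO-III, at -0.90 (adjusted p = 4.64e-05) and -0.95 (adjusted p = 1.93e-06), and took opposite signs in SNU-216 and SNU-601. Of 12 membrane skeleton genes tested, 2 were higher (16.7%) and 3 lower (25%) in KATO-III and 0 higher and 1 lower (8.33%) in SNU-601 by limma, near the shares of all genes, and 4 were higher (33.3%) and 0 lower in SNU-216. ADD3, for gamma-adducin, which caps filaments at the spectrin network, was higher at 0.49 (adjusted p = 0.000227) in KATO-III and 1.12 (adjusted p = 5.97e-06) in SNU-216, and did not pass in SNU-601 at 0.18 (adjusted p = 0.0704). Of the SRF cofactors, MKL2 was higher at 1.49 (adjusted p = 0.000162) in KATO-III and 1.03 (adjusted p = 0.00213) in SNU-216, and was under the floor on all 4 SNU-601 arrays. The genes of this paragraph were picked after their values were seen.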
